A study of Mus musculus with 16 samples.

Results

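Immunoglobulin kappa variable genes (symbols beginning Igkv and a digit) are described here in germinal centre B cells of immunized mice. The members were every such gene with at least 20 reads summed over the 16 libraries, which gave 122 of the 160 Igkv genes listed and of 49584 genes in the whole table. They held 1245941 reads. The members were chosen by these read sums, so that a member had reads is not a finding. Just inside the minimum were Igkv8-31 with 21 reads and Igkv14-118-1 with 22, and just outside were Igkv13-55-1 with 19 and Igkv13-82 with 18. The 38 genes below the minimum had 154 reads together, and 22 of them had any. All 122 members matched GENCODE M21 by symbol: 100 were annotated as variable genes without a pseudogene label, which is every such Igkv gene listed, and 22 as pseudogenes, of 60 pseudogenes listed.

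A kappa light chain is made when a B cell precursor joins 1 variable gene to 1 of the joining genes (Igkj) in front of the constant gene Igkc. The variable gene encodes most of the antigen-facing part of the chain, and a mature B cell and its daughters as a rule keep transcribing the rearranged gene. In a germinal centre, B cells divide and mutate their variable genes in the dark zone, as centroblasts, and are selected in the light zone, as centrocytes. The share of each variable gene among kappa reads therefore reflects both how many cells carry that rearrangement and how much RNA each cell makes, and in bulk RNA fewer cells and less RNA per cell cannot be told apart.

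The study compared the heterozygous Ezh2(Y641F) allele, an altered form of a histone H3 lysine methyltransferase seen in lymphoma, with controls. Mice were C57BL/6J, 3 months old, labelled as litter 1, and taken on day 8 after sheep red blood cells were given, and all carried Cγ1-cre+/-. Controls carried no further allele, and mutants were Ezh2(Y641F)fl/wt;Cγ1-cre+/-. The Cre is driven by the Cγ1 immunoglobulin locus, which is active in activated B cells, and counts per gene do not show in how many cells the mutant allele was switched on. Spleen cells that were FAS+, CD38- and B220+ were sorted as centroblasts (CXCR4+ CD86-) or centrocytes (CD86+ CXCR4-), with 4 libraries in each of the 4 groups, numbered 1 to 4, which the design text calls biological replicates. The labels do not say that a centroblast and a centrocyte library of the same number come from 1 mouse. By their Y-linked transcripts, numbers 1 and 2 of each group were male and numbers 3 and 4 female.

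Total counts ranged from 35230563 to 44466911 reads per library. All 9 germinal centre B cell markers of the list were present, with a summed level of 4564 to 5770 CPM per library (CPM, counts scaled to TMM-adjusted library size). All 12 plasma cell markers of the list had reads as well. Their summed level was 2861 to 3692 CPM in centroblasts and 1984 to 2400 CPM in centrocytes, while of the defining markers Sdc1 stayed below 10 CPM and Prdm1 reached at most 19.7 CPM, in control centrocyte library 3. The summed level of the 12 macrophage markers ranged from 26.5 CPM in a control centroblast library to 300.3 CPM in a mutant centrocyte library. The part of these markers in the results below was not tested.

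The members lie on chromosome 6 between positions 67555497 and 70704177 (GENCODE M21 on GRCm38, the mm10 assembly), upstream of Igkj1, which starts at 70722562. Of the 122, 49 lie on the strand of Igkj1 and 73 on the opposite strand, and by their names they fall into 20 families. The 3′ ends of 8 variable genes are shown because they code for the last framework residues and the start of the third antigen-contact loop, where the genes that dominate the libraries differ. The first 5 have the highest usage, Igkv12-89 stood out in the libraries of 1 number, and Igkv5-43 and Igkv5-45 are shown because reads from them are hard to tell apart. Each is printed 5′ to 3′ on the gene's own strand from the GENCODE M21 transcripts, and capitals mark the codon of the conserved cysteine before that loop.
Igkv1-110: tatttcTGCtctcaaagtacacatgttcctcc
Igkv1-117: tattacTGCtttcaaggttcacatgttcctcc
Igkv14-111: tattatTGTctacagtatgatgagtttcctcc
Igkv6-15: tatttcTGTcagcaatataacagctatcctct
Igkv10-96: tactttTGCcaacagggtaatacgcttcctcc
Igkv12-89: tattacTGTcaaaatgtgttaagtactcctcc
Igkv5-43: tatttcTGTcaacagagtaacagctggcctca
Igkv5-45: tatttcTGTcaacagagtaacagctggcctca

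In the order printed, they end the genes at chr6:68271236-68271267 (plus strand), chr6:68121796-68121827 (plus), chr6:68256838-68256869 (plus), chr6:70406469-70406500 (minus), chr6:68631963-68631994 (minus), chr6:68834846-68834877 (minus), chr6:69823355-69823386 (minus) and chr6:69775750-69775781 (minus), in the variable exon. Igkv1-110 and Igkv1-117 differed at 4 of these 32 bases, and Igkv5-43 and Igkv5-45 at 0 of 32. Over the last 290 bases, Igkv1-110 and Igkv1-117 were 96.9% identical, and Igkv5-43 and Igkv5-45 98.97%. A relative of at least 95% identity was found for 49 members and one of at least 98% for 6, while the closest relative of Igkv12-89 reached 86.2%. How the counting treated reads that fit several genes is not given in the sources used here, and hypermutation can move a read to a relative, so counts of close relatives are uncertain.

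Kappa variable genes were a small part of each library. Member reads ranged from 58376 to 106310 per library, or 0.154% to 0.272% of counted reads. The group means ± SD were 0.223% ± 0.033 in control centroblasts, 0.211% ± 0.030 in mutant centroblasts, 0.191% ± 0.033 in control centrocytes and 0.180% ± 0.029 in mutant centrocytes (n = 4 each), and the ranges of the groups overlapped. For every 100 reads of the constant gene Igkc there were 28.6 to 38.9 member reads, the most in control centroblast library 1. A read in every library was found for 103 of the 122 members, and 112 to 120 members were detected in a library. Pseudogenes held 0.305% to 0.867% of member reads.

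Usage is given as the share of a library's member reads. Shares were dominated by 2 closely related genes of family 1, Igkv1-110 and Igkv1-117. Igkv1-110 had the highest share in 12 libraries and Igkv1-117 in 4, the centroblast and centrocyte libraries of control 2 and of mutant 3. The 29 members with a mean share of at least 1% held 73.4% of reads on average. The 10 highest genes of each library, which were not the same 10 in every library, held 42.3% to 50.9% of its member reads. Counting error was small beside the differences between libraries. For the 10 members with the highest mean share and 4 others, the 95% Wilson interval of a share reached at most 0.221 percentage points to each side, which covers counting error only.

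The share of Igkv1-110 in control centroblast libraries 1 to 4 was 9.43%, 7.07%, 11.04% and 9.14%, and in mutant centroblasts 6.56%, 6.02%, 6.42% and 9.26%. In control centrocytes it was 8.33%, 6.21%, 11.1% and 9.79%, and in mutant centrocytes 6.60%, 7.45%, 7.85% and 10.4%. Control 3 was highest in both cell types, mutant 4 was the highest mutant in both, and the genotypes overlapped.
The share of Igkv1-117 was 8.37%, 8.37%, 9.58% and 7.28% in control centroblasts and 4.89%, 6.31%, 6.25% and 5.68% in control centrocytes, so every control centrocyte library lay below every control centroblast library. In mutants it was 5.57%, 5.85%, 7.53% and 8.95% in centroblasts and 5.32%, 5.13%, 8.22% and 7.61% in centrocytes, which overlapped.

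The next genes were Igkv14-111 with a mean share of 5.06% over the 16 libraries, Igkv6-15 with 4.66%, Igkv10-96 with 4.45% and Igkv1-135 with 4.02%. Igkv2-137, Igkv8-30, Igkv6-17 and Igkv19-93 followed with 3.55%, 2.92%, 2.22% and 2.17%. Neighbours in this order were not separated in every library, since the ranges over libraries overlapped from each gene to the next. Transcripts of the members are 298 to 501 bases long. Per base of transcript the same 10 genes were highest on average, with Igkv1-110 at 7.75%, Igkv1-117 at 6.43%, Igkv14-111 at 5.15% and Igkv6-15 at 5.03% of length-scaled reads. In single libraries Igkv1-110 was highest per base in 12 and Igkv1-117 in 3, and another gene led in the remaining library. The long Igkv2-137 moved below Igkv8-30 on that scale, at 2.66% against 2.98%.

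**Figure D1:**
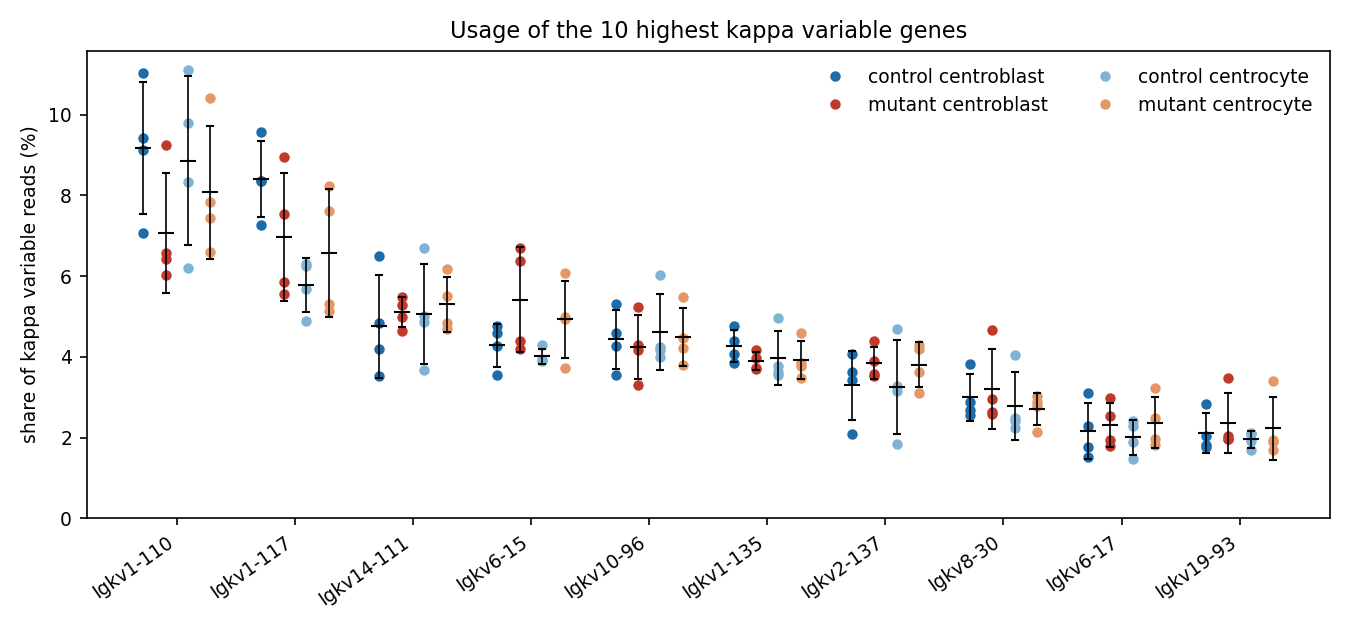
Share of kappa variable reads (%, vertical axis) of the 10 genes with the highest mean share, with 1 point per library, coloured by group, and the mean ± SD of each group (n = 4). Igkv1-110 spans 6.02% to 11.1%, and for Igkv1-117 every control centroblast library (7.28% or more) lies above every control centrocyte library (6.31% or less).

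By family, Igkv1 with 12 members held a mean of 20.8% of member reads, Igkv6 with 9 members 12.6%, Igkv4 with 32 members 11.1% and Igkv8 with 11 members 8.81%. Igkv4, the family with the most members, thus had 0.347% of reads per member against 1.73% in Igkv1. The share of Igkv6 was 10.3%, 11.7%, 11.8% and 11.4% in control centroblasts 1 to 4 and 13.1%, 12.7%, 14.9% and 13.8% in mutant centroblasts, which did not overlap. In centrocytes Igkv6 had 11.9%, 13.7%, 10.8% and 11.2% in controls and 13.2%, 12.8%, 13.96% and 14.3% in mutants, where control 2 lay inside the mutant range. Igkv6 was the only one of the 20 families looked at whose genotypes did not overlap in centroblasts, and no test was made of a family's share.

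Usage was spread over the whole locus. The 55 members in the distal part (farther from Igkj1 than the midpoint at 69139029) held 48.6% to 58.5% of reads, and the 67 proximal members the rest. Members on the strand of Igkj1, which join by deletion of the DNA between, held 45.8% to 53.3% of reads, and members on the opposite strand join by inversion. The 3 genes with the highest mean share are all distal and on the strand of Igkj1, and their 3′ ends are the first 3 printed above.

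**Figure D2:**
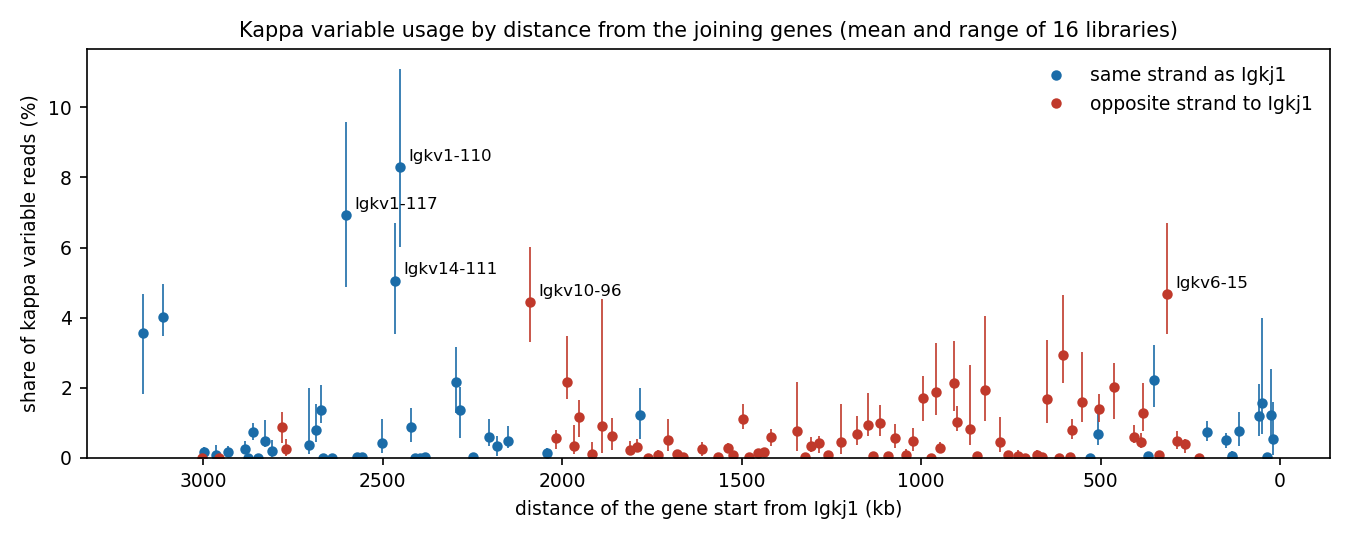
Mean share of each of the 122 members (%, points) with its range over 16 libraries (lines) against the distance of the gene start from Igkj1 in kb, coloured by strand. High shares occur at both ends of the locus, with Igkv1-110 and Igkv1-117 highest at 8.29% and 6.93% on average.

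Diversity is given as the effective number of genes, the number of equally used genes that would give the same Shannon entropy. It was 47.3, 50.2, 44.6 and 48.2 in control centroblasts 1 to 4, 55.2, 51.3, 51.4 and 46.4 in mutant centroblasts, 51.8, 53.9, 48.3 and 49.1 in control centrocytes, and 54.2, 51.1, 50.7 and 46.0 in mutant centrocytes. The means ± SD were 47.6 ± 2.33, 51.1 ± 3.62, 50.8 ± 2.59 and 50.5 ± 3.39 in that order, and every pair of groups overlapped. Control 3 and mutant 4 were the lowest of their genotype in both cell types. Between libraries of the same number, the centrocyte value was above the centroblast value in 4 of 4 controls, by 0.835 to 4.55, and below it in 4 of 4 mutants, by 0.184 to 1.05 in size. The inverse Simpson index, which weights the most used genes more, ranged from 26.1 to 38.3, and 10 to 14 genes were enough to hold 50% of a library's member reads. The share held by each library's own 10 highest genes did not overlap between control centroblasts (45.9% to 50.5%) and control centrocytes (42.3% to 45.7%). That share overlapped between the zones in mutants and between the genotypes in each cell type. Of the whole-library measures compared in the same way, such as effective number, inverse Simpson index and highest share, no other separated any compared groups.

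Libraries of the same genotype and number resembled each other most. Likeness is given as usage overlap, the sum over members of the smaller of both shares. Between the centroblast and the centrocyte library of controls 1 to 4 the overlap was 89.9%, 89.6%, 88.5% and 88.6%, and in mutants 1 to 4 it was 94.0%, 90.2%, 91.4% and 91.9%. The other 112 pairs of libraries ranged from 76.4% to 88.3%, with a median of 83.6%, so the 8 same-number pairs lay above all of them. The closest library was the one of the same genotype and number from the other cell type in 16 of 16 libraries. This also held in 16 of 16 when the 10 members with the highest mean share were left out.

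Other pairs differed little by what they shared. Libraries of the same genotype and cell type had a median overlap of 83.7% (24 pairs). Libraries of other numbers had 83.6% with only the cell type shared, 83.5% with only the genotype shared and 83.0% with neither (24 pairs each), and the ranges overlapped. Leaving the same-number pairs aside, libraries of the same sex had a median of 84.3% (48 pairs) and of the other sex 83.0% (64 pairs), with ranges that overlapped. Both control 3 libraries stood farthest from the rest. These overlaps are descriptions of libraries, with no test.

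**Figure D3:**
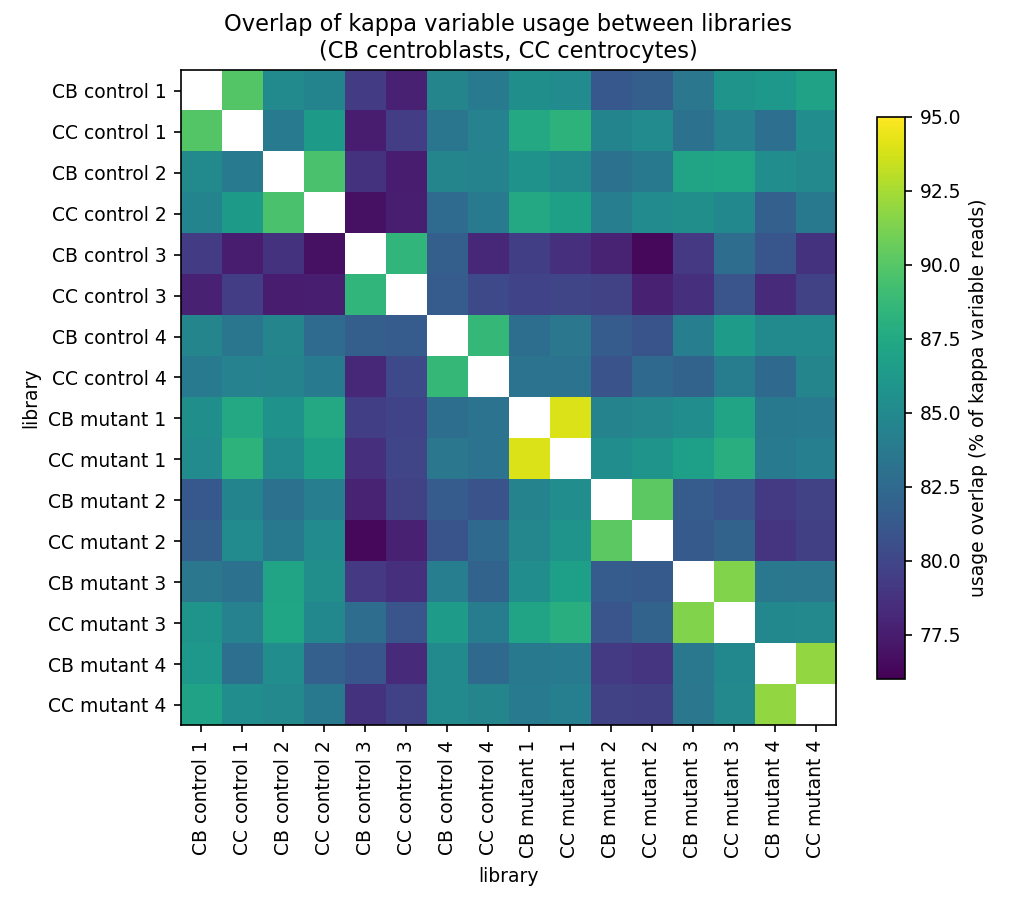
Usage overlap (%, colour) between each 2 of the 16 libraries, ordered by genotype and number with centroblast (CB) next to centrocyte (CC). The 8 bright blocks beside the diagonal are the same-number pairs, at 88.5% to 94.0%, and the dark bands are control 3.

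Single genes marked single numbers. For 45 of the 122 members both libraries of 1 genotype and number had a higher share than all other 14 libraries, between 3 and 7 members for each of the 8 numbers. On the CPM scale this held for 30 of the 107 members that passed the filter on low counts, or 28.0%, against 6.02% of all 15240 genes tested. The rule for named genes gave Igkv12-89 among these, and Igkv1-122, Igkv3-1 and Igkv12-41 were picked after their values were seen.

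Igkv12-89 had 3.92% of reads in control 3 centroblasts (95% Wilson interval 3.79% to 4.05%) and 4.53% in control 3 centrocytes (4.40% to 4.67%), and 0.126% to 0.824% in the other 14 libraries. Its mean share over the 16 libraries was 0.908%, and no other library reached 1%. Igkv1-122 had 2.00% and 0.801% in mutant 4 centroblasts and centrocytes and 0.103% to 0.481% elsewhere. Igkv3-1 had 1.58% and 1.49% in control 4 against 0.0715% to 0.682%, and Igkv12-41 had 1.39% and 2.64% in control 4 against 0.354% to 1.14%. Igkv3-1 is the member that lies nearest to the joining genes.

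**Figure D4:**
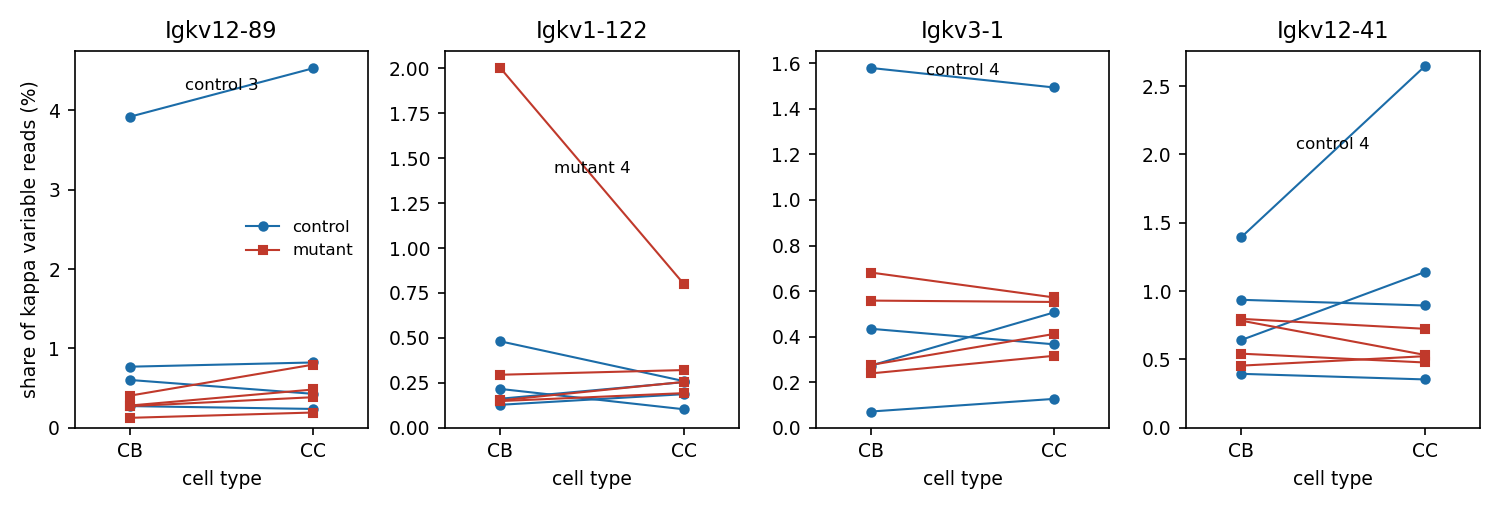
Share of kappa variable reads (%) of 4 genes in centroblasts (CB) and centrocytes (CC), with a line joining libraries of the same genotype and number (controls blue, mutants red). In each panel 1 number stands above the others in both cell types, as Igkv12-89 does in control 3 at 3.92% and 4.53%.

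The spread between numbers was carried by the same members in both cell types. Deviations of log2 CPM from the group mean correlated between centroblast and centrocyte libraries of the same number with 0.477 to 0.823 over the 107 members, a description across genes, which are not independent. In all 8 number pairs this was the best match in both directions.

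Mutant and control centroblasts were compared first, to see the effect of the Ezh2 allele on dark zone cells. With edgeR's quasi-likelihood test and Benjamini-Hochberg adjustment over all genes tested, 0 of the 107 members passed in either direction, against 4.06% of all genes tested that were higher and 6.40% that were lower in mutants. At an unadjusted p under 0.05 there were 9 members, 6 higher and 3 lower in mutants (8.41% of members against 22.8% of all genes). DESeq2 called 2 by its adjusted p, and its share over all genes was not computed. The 15 members left out by the filter had too few reads to test. The median log2 fold change of members was -0.0046, beside 0.0083 over all genes, and 54 of 107 were below 0.

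The 3 members with the smallest p were Igkv1-99, Igkv6-20 and Igkv12-89. Igkv1-99 had 6.93, 4.21, 1.32 and 2.58 CPM in control centroblasts 1 to 4 and 4.80, 14.4, 13.0 and 7.58 CPM in mutant centroblasts, which overlapped because control 1 lay above mutant 1. Its log2 fold change was 1.41 ± 0.45 (SE), with an edgeR adjusted p of 0.0555. Igkv6-20 had 5.66, 8.70, 7.49 and 8.20 CPM in controls and 11.9, 14.1, 9.71 and 9.26 CPM in mutants, with no overlap, a log2 difference of 0.58 ± 0.21 and an edgeR adjusted p of 0.0877. Igkv12-89 had a log2 difference of -2.42 ± 0.90 (edgeR adjusted p 0.104), with 84.9 CPM in control 3 and 3.06 to 21.1 CPM in the other 7 libraries. Groups did not overlap for 2 members higher in mutants and 0 lower, against 6.36% and 8.01% of all genes.

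In centrocytes, 1 member of 107 rose and 1 fell in mutants, against 7.37% of all genes that rose and 9.15% that fell. Igkv8-16, a member of family 8 used at a mean share of 0.0758%, had 0.749, 1.07, 0.822 and 0.899 CPM in controls, against 2.22, 1.396, 2.10 and 1.61 CPM in mutants. Every mutant library lay above every control library, with a log2 fold change of 1.04 ± 0.23 and an edgeR adjusted p of 0.00486. It stayed called with each library of the compared groups left out in turn, and was not called in males alone (log2 fold change 0.97).

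Igkv14-126 had 12.2, 16.8, 8.26 and 6.22 CPM in centrocytes of controls, against 5.93, 5.91, 7.26 and 6.42 CPM in those of mutants. The high values were control 1 and control 2, both male, and the groups overlapped. The log2 fold change was -0.77 ± 0.24, with an edgeR adjusted p of 0.0391. The call was lost without control 1, without control 2 (log2 fold change -0.48) or without any 1 of the mutant centrocyte libraries, and in females alone the log2 difference was -0.09. Over all members the median was 0.077, beside 0.0014 over all genes. Groups did not overlap for 2 members that were higher and 1 that was lower in mutants, where 11.1% and 12.4% of all genes did not.

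Centrocytes and centroblasts were compared within each genotype. In controls, 1 member of 107 was higher and 7 were lower in centrocytes, against 14.9% of all genes that were higher and 12.9% that were lower. Most members leaned the same way: 87 of 107 had a log2 fold change below 0, with a median of -0.23 beside 0.0049 over all genes. Groups did not overlap for 0 members higher and 8 lower in centrocytes, against 15.4% and 12.3% of all genes. Markers of other cell types moved between the zones too.

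The summed level of plasma cell markers was lower in centrocytes of both genotypes, without overlap, but its genes moved in both directions. Of the 12, 3 rose and 3 fell in control centrocytes, and 2 rose and 4 fell in mutant centrocytes. Jchain, the joining chain of secreted antibody, had 1305 to 1662 CPM in control centroblasts and 745 to 895 CPM in control centrocytes (log2 fold change -0.79 ± 0.15, edgeR adjusted p 0.000679), and Mzb1 and Slamf7 fell with it. Prdm1, Irf4, both transcription factors of plasma cell differentiation, and Derl3 rose, by 1.70 ± 0.37, 1.32 ± 0.20 and 1.37 ± 0.21 on the log2 scale. In mutant centrocytes Irf4 and Derl3 rose and Jchain, Mzb1, Slamf7 and Xbp1 fell.

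The 8 naive and follicular B cell markers summed to 340 to 375 CPM in control centroblasts, 316 to 458 CPM in mutant centroblasts, 947 to 1144 CPM in control centrocytes and 919 to 1117 CPM in mutant centrocytes. The zones did not overlap, with 5 of the 8 called higher and 0 lower in control centrocytes and 4 and 0 in mutant centrocytes. Fcer2a, the low-affinity IgE receptor of follicular B cells, was the most abundant, at 144 ± 25.9 and 606 ± 68.6 CPM in control centroblasts and centrocytes (mean ± SD, n = 4). The 8 T cell markers summed to 109 to 173 CPM and 173 to 203 CPM in control and mutant centroblasts, and to 214 to 313 CPM and 295 to 331 CPM in control and mutant centrocytes. Lck, a Src family kinase, made up nearly all of that sum, at 108 to 326 CPM, while the T cell receptor constant gene Trac reached at most 1.71 CPM. The part of these markers in the zone results was not tested.

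Igkv1-117, the second most used gene, fell in control centrocytes. It had 169, 172, 208 and 200 CPM in centroblasts 1 to 4 and 78.4, 97.3, 131 and 115 CPM in centrocytes, with no overlap, a log2 fold change of -0.83 ± 0.26 and an edgeR adjusted p of 0.0240. Its close relative Igkv1-110 had 191, 145, 239 and 251 CPM in centroblasts and 134, 95.8, 232 and 198 CPM in centrocytes, which overlapped, with a log2 difference of -0.33 ± 0.28 and an edgeR adjusted p of 0.420. The centrocyte value of Igkv1-110 was the lower one in 4 of 4 controls by number. With the number as a replicate block within genotype, chosen after seeing the data, both genes were called. The log2 fold change was then -0.37 for Igkv1-110 (edgeR adjusted p 0.0301) and -0.85 for Igkv1-117 (edgeR adjusted p 0.000518). Whether the zone differences of these genes differ was not tested. The call of Igkv1-117 was lost without control centroblast 3, control centrocyte 1 or control centrocyte 2.

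Igkv8-16 fell as well, from 1.61, 1.55, 2.18 and 2.12 CPM in control centroblasts to the centrocyte values given above, with no overlap, a log2 fold change of -1.07 ± 0.23 and an edgeR adjusted p of 0.00220. Igkv9-120 fell by 0.67 ± 0.19 (edgeR adjusted p 0.0157), Igkv5-45 by 0.68 ± 0.21 (0.0238), Igkv1-135 by 0.43 ± 0.14 (0.0330) and Igkv20-101-2, at under 1 CPM, by 1.60 ± 0.56 (0.0395) on the log2 scale. Igkv16-104 fell by 0.69 ± 0.25 (0.0494), and is named because it completes the count. The groups did not overlap for any of these 5.
Igkv2-109 was the 1 member that rose, from 9.68, 17.0, 11.5 and 12.5 CPM to 20.4, 22.1, 22.7 and 14.4 CPM. Control centroblast 2 lay above control centrocyte 4, so the groups overlapped. The log2 fold change was 0.65 ± 0.18 (edgeR adjusted p 0.0108). Without control centrocyte 2 the number of members called was 2, without control centroblast 4 it was 3, without control centroblast 3 it was 4 and without control centrocyte 3 it was 5.

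In mutants, 0 members of 107 were called higher and 1 lower in centrocytes, against 8.92% and 7.07% of all genes. Igkv5-45 had 7.53, 7.26, 5.06 and 7.38 CPM in mutant centroblasts and 5.61, 4.11, 3.82 and 3.58 CPM in mutant centrocytes. Centrocyte 1 lay above centroblast 3, so the groups overlapped, and the log2 fold change was -0.67 ± 0.21 with an edgeR adjusted p of 0.0386. Whether reads of Igkv5-45 and of its near-identical relative Igkv5-43 were kept apart is not known. The call was lost without any 1 of mutant centroblasts 1, 2 and 4 or mutant centrocytes 2, 3 and 4.

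Over all genes, deviations of same-number libraries correlated with 0.263 to 0.327 in mutants, though only mutant 1 was the best match in both directions. With the number as a replicate block within each genotype 9 members were called in mutants, 1 higher (Igkv10-94) and 8 lower, against 10.7% of all genes higher and 7.36% lower in the same fit. Igkv5-45 was among them with an edgeR adjusted p of 0.00850. The control count under the same block is given with the alternatives below, and the unblocked control count is not its counterpart. Of the members, 90 of 107 were below 0 in mutants without the block, with a median of -0.24 beside 0.018 over all genes. Groups did not overlap for 0 members higher and 2 lower, against 11.5% and 10.5% of all genes.

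The difference of both zone effects was tested as an interaction of genotype and cell type. With edgeR 0 of 107 members passed in either direction, against 0.00% of all genes in each, and DESeq2 called 0 members too. At an unadjusted p under 0.05 there was 1 member, or 0.935% of the 107, against 2.81% of all genes. It was Igkv8-16, with a log2 difference of 1.38 ± 0.32, an unadjusted edgeR p of 0.000422 and an adjusted p of 0.999. In mutants Igkv8-16 had 1.13, 1.51, 1.58 and 1.68 CPM in centroblasts 1 to 4, below the centrocyte value of the same number in mutants 1 and 3 and above it in mutants 2 and 4. The median over members was -0.021, beside 0.0098 over all genes.

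**Figure D5:**
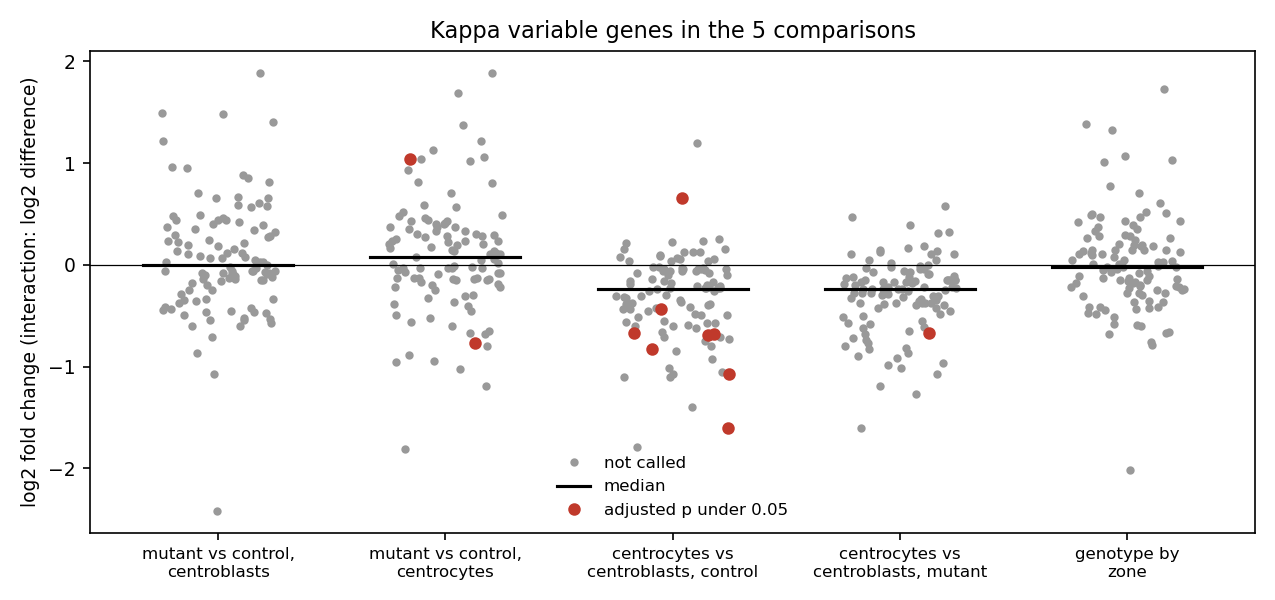
Log2 fold change (vertical axis) of the 107 tested members in each of the 5 comparisons, with members of adjusted p under 0.05 in red and the median as a line. Members centre near 0 for genotype, at -0.0046 and 0.077, and below 0 for centrocytes against centroblasts, at -0.23 in controls and -0.24 in mutants.

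Other genes of kappa chain expression were taken from a list of 37 genes in 5 groups. Of the 12 light chain constant and joining genes, 2 rose in mutant centroblasts and the same 2 in mutant centrocytes, with 0 lower in both. These were the lambda constant genes Iglc2 (log2 fold change 0.80 ± 0.14, edgeR adjusted p 0.00104, and 0.99 ± 0.14, edgeR adjusted p 0.000196) and Iglc3 (0.48 ± 0.15 and 0.71 ± 0.15), which are near-identical copies, so their counts are uncertain. In centrocytes 2 fell in controls (Iglc1 and Iglv3) and 1 in mutants (Iglc1). The kappa constant gene Igkc was not called, at 6748 ± 1369 and 6907 ± 935 CPM in control and mutant centroblasts and 5722 ± 806 and 5893 ± 761 CPM in control and mutant centrocytes (mean ± SD, n = 4). Its log2 difference between the zones was -0.24 ± 0.15 in controls and -0.23 ± 0.15 in mutants, close in size to the median of the variable genes.

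Of 13 factors that act on light chain promoters and enhancers, 1 rose and 1 fell with the mutation in each cell type: Nfkb1, an NF-κB subunit, by 0.46 ± 0.10 in centroblasts and 0.38 ± 0.10 in centrocytes, and Pou2af1, the coactivator of octamer factors at immunoglobulin promoters, which fell by 0.42 ± 0.11 and by 0.38 ± 0.11 on the log2 scale. Between zones, 3 rose and 3 fell in controls and 3 rose and 1 fell in mutants. Pou2af1 was lower in centrocytes of both genotypes, at 1389 ± 40.8 CPM against 2863 ± 248 CPM in controls and 1068 ± 136 CPM against 2136 ± 255 CPM in mutants.
Of 3 recombination genes only Rag1, a subunit of the recombinase, passed the filter, and it was lower in centrocytes of both genotypes, from at most 1.71 CPM in any library. Of 5 secretion genes, 1 rose with the mutation in centrocytes (Mzb1, a chaperone of antibody assembly, by 0.49 ± 0.13), and in centrocytes 2 were higher and 1 lower in controls and 2 higher and 2 lower in mutants. Of 4 hypermutation genes, 1 fell with the mutation in centroblasts (Polh, the error-prone polymerase eta, by 0.30 ± 0.09), and Polh was also lower in centrocytes than in centroblasts, by a log2 fold change of -1.49 ± 0.09 in controls and -1.29 ± 0.09 in mutants.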

How the data were processed

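Values are read counts by gene symbol as deposited by the authors, whole and without normalization. The submitters' processing notes name Trim Galore and cutadapt, STAR 2.5.3a with the mm10 build, and Subread with featureCounts 1.4.5-p1. Strand, the treatment of multi-mapping reads and the annotation release are not given in the sources used here. Naive B cells named in the design text are not analysed here. One gene of the lists is not reported here. The members, lists and tests were chosen with earlier results of these data known.

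Shares were computed from the counts. Tests used edgeR 4.0.16 (R 4.3.3, limma 3.58.1): filterByExpr by group, TMM factors, 1 mean per group over all 16 libraries with 12 residual degrees of freedom, quasi-likelihood tests and Benjamini-Hochberg adjustment over 15240 genes, 2-sided, threshold 0.05. CPM values use TMM-adjusted library sizes, and errors of fold changes are the SE of the fit. Alternatives included DESeq2 1.42.0. The fit was also run on simulated counts, drawn without any likeness between same-number libraries, so that run did not cover this feature of the data.

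The rule for named genes took the 10 highest mean shares, each gene highest in a library, up to 6 called members per direction and comparison or the 3 smallest p where none was called, and the 2 genes on each side of the read minimum, 23 in all. Number pairs were checked with the correlation of deviations from the group means over all tested genes. It was 0.327, 0.263, 0.324 and 0.316 in mutants 1 to 4, all over 0.1, and -0.0059, 0.395, 0.452 and 0.134 in controls. By that threshold pairing is taken from the data in mutants and not in controls. Over all genes 2 of the 8 pairs were the best match in both directions, against 8 of 8 over the members. The unblocked control count and the blocked mutant count are therefore not like for like.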

Additional observations from a re-analysis of the deposited data

Results flagged for a closer look

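In groups of 4 libraries, a library was marked when its gap to the nearest other library, divided by the range of the group passed Dixon's critical value for the 95% level. This held in 12 of 104 groups of values. Chance would mark about 1 in 20 of independent groups chosen beforehand, which these were not. Several groups share libraries, and 3 of the genes (Igkv1-122, Igkv3-1 and Igkv12-41) entered after their values were seen.

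Number 3 of the controls stood apart for Igkv12-89, with a share of 3.92% in centroblasts against 0.274% to 0.770% in the other control centroblasts, and 4.53% in centrocytes against 0.238% to 0.824%. Its centroblast library was also high for Igkv8-16, at 0.101% against 0.0754% to 0.0795%. Number 2 of the mutants stood apart for Igkv19-93 in both cell types, at 3.47% in centroblasts against 1.97% to 2.04% and 3.395% in centrocytes against 1.69% to 1.94%. The mutant 4 centroblast library was high for Igkv1-110, at 9.26% against 6.02% to 6.56%, and for Igkv1-122, at 2.00% against 0.149% to 0.295%.

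Among control centrocytes, library 2 was high for Igkv6-15 (4.28% against 3.90% to 3.93%) and for Igkv1-135 (4.96% against 3.56% to 3.78%). Library 4 was high for Igkv10-96 (6.03% against 4.01% to 4.26%), and library 1 for Igkv8-30 (4.04% against 2.23% to 2.48%). The mutant centrocyte library 3 was low for Igkv20-101-2, at 0.00664% against 0.0376% to 0.0416%, a gene with few reads.

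Zone differences of opposite direction in the genotypes were seen in 2 measures. They were picked from a longer list of measures checked in the same way, mostly shares of single genes. Igkv8-16 was on that list because it had been called in these same data. The effective number was higher in centrocytes than in centroblasts of the same number in 4 of 4 controls, by 0.835 to 4.55, while the difference in mutants ran from -1.05 to -0.184. The share of Igkv8-16 differed by -0.0615 to -0.0058 percentage points in controls and by 0.0098 to 0.0793 in mutants. These differences between genotypes in diversity and share were not tested. On the CPM scale Igkv8-16 was lower in the centrocyte than in the centroblast library in mutants 2 and 4, and its interaction did not pass (edgeR adjusted p 0.999).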

How the results depend on the processing

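With RLE factors, or TMM factors from genes other than immunoglobulins, the members called numbered 0, 2, 8, 1 and 0 in the 5 comparisons (mutant against control in centroblasts and in centrocytes, centrocytes against centroblasts in controls and in mutants, interaction), as in the fit reported. For the alternatives other than the nested block below, the share of all genes called was not computed. Their member counts are therefore not set against a general rate. Without the filter on low counts there were 5 (4 higher, 1 lower), 8 (2, 6) and 6 (0, 6) in the first, the second and the fourth. DESeq2 called 2 in the first and 2 in the fourth, and sex as a covariate gave 1 in the first. The compared groups alone gave 4 in the second and 3 in the fourth. With the number as a replicate block over both genotypes, 2, 5 and 2 were called in the first, the second and the fourth. With the replicate block nested within genotype, chosen after seeing the data, 22 (1 higher, 21 lower) were called in controls, the 8 reported and Igkv1-110 (log2 fold change -0.37, edgeR adjusted p 0.0301) among them, against 16.8% of all genes higher and 12.8% lower, and 9 in mutants. In controls every library correlated best with its own number over the members, which is a hint from the data, not the design. Males alone gave 7, 4, 4 and 2 and females alone 2 and 6 in the genotype comparisons and 0 in the fourth, fits with 2 libraries a group that were chosen after seeing the data. Since the share of all genes called in these fits is not known, a difference by sex cannot be read from these counts. Leaving out 1 library gave 0 to 1, 1 to 3, 2 to 8, 0 to 2 and 0 to 0. The interaction had 0 under every alternative run. Of 319 values of a named gene under an alternative, 264 kept direction and side of the threshold, 46 lost and 9 gained the call, and 0 reversed. All 68 values of effective number and highest share moved by less than the SD between libraries. Depth limits the 15 members under 70 reads, and the low counts of Igkv8-16 and Igkv20-101-2.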
